A study of Macaca mulatta with 16 samples.

Results

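Retinoic acid synthesis and signalling was examined through 9 genes in the fetal lung of rhesus macaques. The genes were chosen by symbol: STRA6, DHRS3, ALDH1A1, ALDH1A2, CRABP1, CRABP2, CYP26B1, RARA and RARB. Each of the 9 symbols matched 1 Ensembl gene among the 22515 genes of the counts table. All 9 also passed the filter on low counts, which kept 19199 genes for testing.

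Retinoic acid is made inside cells from retinol, the circulating form of vitamin A. Retinol is oxidized reversibly to retinaldehyde, and retinaldehyde is oxidized to retinoic acid by the ALDH1A enzymes. Retinoic acid is then carried by CRABP proteins to nuclear receptors, the RARs, or to CYP26 enzymes, which break it down. In the developing lung the pathway is known for its role in bud formation and in the formation of alveoli, and lipid-storing fibroblasts of the alveolar wall hold retinoids.

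The tissue was whole lung of 16 fetuses with 1 RNA library each. The 4 preterm controls (092, 101, 113 and 209) and the 2 term controls (200 and 201) received no intervention and were delivered at 131 to 135 and at 156 and 157 days of gestation. Intraamniotic LPS, a bacterial endotoxin that produces chorioamnionitis, was given as 1 mg to the other 3 groups. The LPS 16h group (026, 029, 035 and 038) was delivered 16 hours later at 130 or 131 days, and the LPS 5d group (239, 240 and 242) 5 days later at 131 to 134 days. In the LPS + Beta-Ac group (248, 249 and 255) the dams also received 0.125 mg/kg of betamethasone acetate, a long-acting glucocorticoid, intramuscularly, with delivery after 5 days at 131 or 132 days. No group received betamethasone alone here, so its own effect could not be separated from its effect on top of LPS.

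Libraries held 20169363 to 28348816 counts in preterm controls and 30596371 to 48052891 counts in LPS 16h, and the other 3 groups lay between 20214144 and 27616930 counts. The depth of LPS 16h did not overlap that of any other group, and depth and exposure cannot be told apart there. Surfactant and other alveolar type 2 markers summed to 6973 to 12240 CPM (counts scaled to a common library size by TMM) in preterm controls and 10480 to 24480 in LPS 16h. They summed to 16870 to 31420 CPM in LPS 5d, 19230 to 32230 in LPS + Beta-Ac and 18150 to 23320 in term controls. Neutrophil markers summed to 16.2 to 49.3 CPM in preterm controls and to 1479 to 2153 CPM in LPS 16h. Preterm control 209 and term control 200 lay apart on the second principal component of the 12 animals without LPS 16h, with scores of 53.5 and 54.1 against at most 30.7 in the others. All 4 comparisons against preterm controls share the same 4 animals.

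A gene was called when its Benjamini-Hochberg adjusted p, from limma over all 19199 genes, was below 0.05 and its log2 fold change was at least 1 in size. CRABP2 was the only member called in any of the 8 comparisons: it was lower than in preterm controls in LPS 16h and in LPS + Beta-Ac. In LPS 16h 1 of 9 members was therefore called, beside 14.4% of all tested genes, and in LPS + Beta-Ac 1 of 9, beside 6.5% of all tested genes. For LPS 5d against preterm controls 0 members were called (4.83% of all genes), and 3 had an unadjusted p below 0.05. For term against preterm controls 0 were called (2.07% of all genes), and 2 had an unadjusted p below 0.05. The share of all genes with an unadjusted p below 0.05 was not counted, here or for the lists that follow. By adjusted p alone, 2827 of the 19199 genes passed in LPS 5d and 766 in term controls.

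The remaining comparisons called 0 members by limma and also 0 by limma-voom. LPS + Beta-Ac against LPS 5d had 0 members with an unadjusted p below 0.05 (0.104% of all genes called), and so did LPS 5d against term (0.0625%) and LPS + Beta-Ac against term (0.568%). LPS 5d against LPS 16h had 1 such member, ALDH1A1 (14.6% of all genes called). Limma-voom also called 0 members in LPS 5d and in term against preterm controls.

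**Figure D1:**
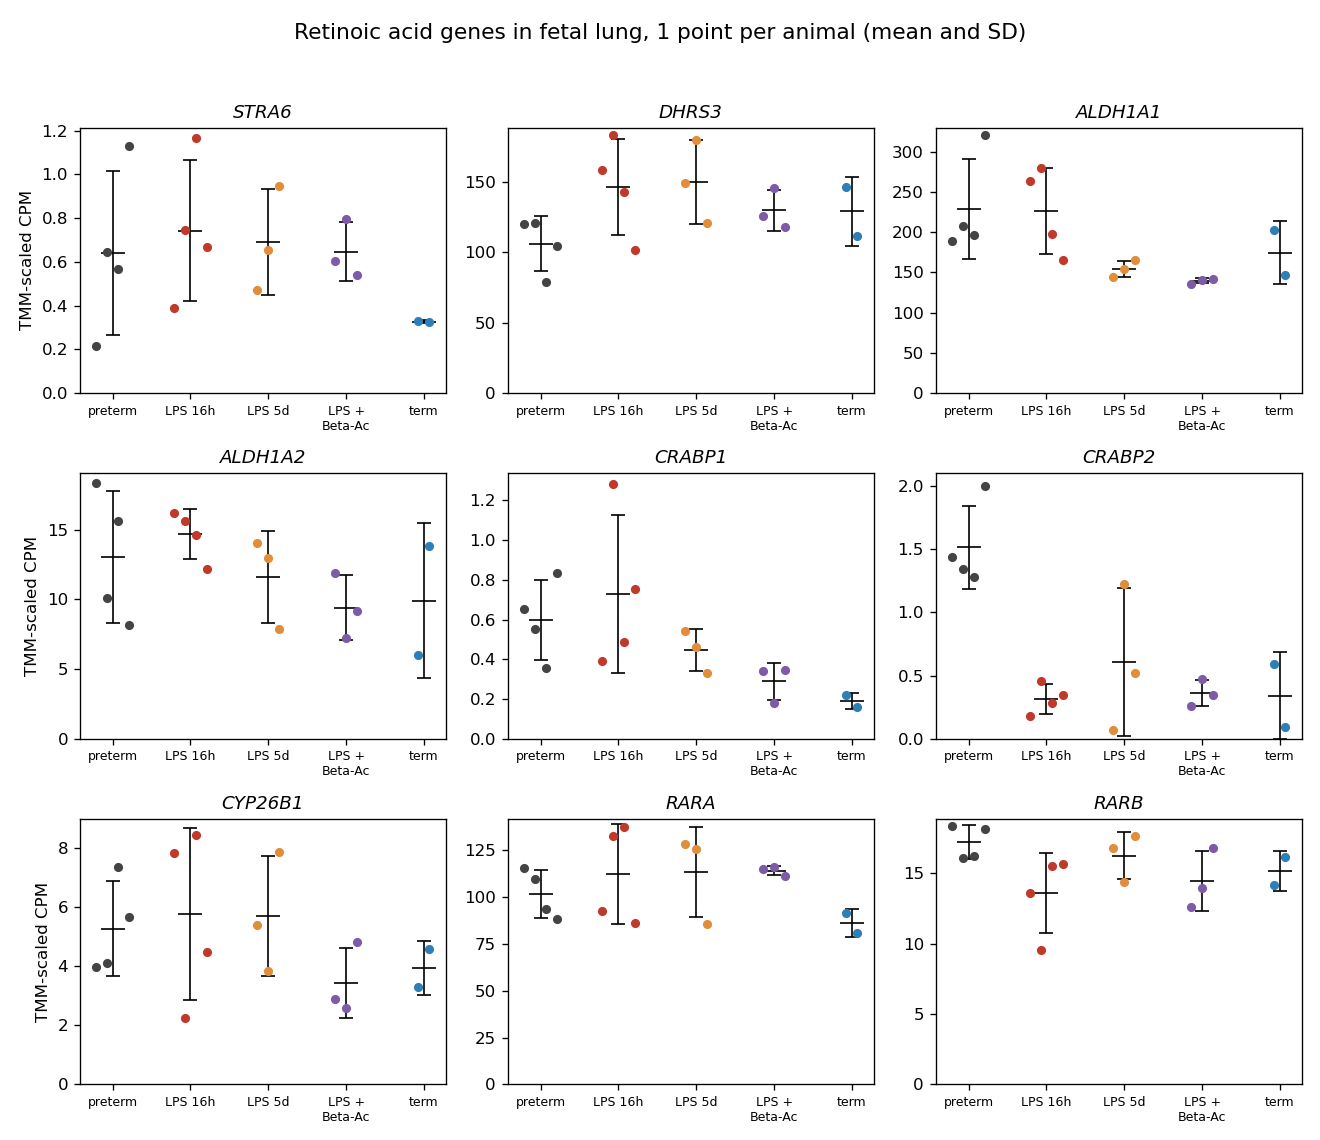
TMM-scaled CPM of the 9 members (1 panel each, linear axes from 0), with 1 point per animal and the mean and SD of each group. CRABP2 in the 4 preterm controls lay at 1.28 CPM or higher, above every other animal. Among the other members CYP26B1 and DHRS3 overlapped in every pair of groups, and the rest had at least 1 pair of groups apart. This was not counted over all genes, so it is not shown to be particular to these members.

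STRA6 (ENSMMUG00000001837), the membrane receptor that takes up retinol from its plasma carrier, was covered by only 5 to 50 counts per library. Its level was 0.640 ± 0.375 CPM (SD, n = 4) in preterm controls, 0.743 ± 0.321 in LPS 16h (n = 4), 0.691 ± 0.241 in LPS 5d (n = 3), 0.646 ± 0.134 in LPS + Beta-Ac (n = 3) and 0.327 ± 0.00541 in term controls (n = 2). The preterm controls spanned 0.218 to 1.13 CPM and contained the range of the term controls. The term controls lay below every animal of the 3 LPS groups, yet LPS 5d differed from term by a log2 fold change of 0.89 with a 95% interval of -0.23 to 2.01 (adjusted p = 0.556). The difference was not detected, and low counts and the small number of animals were not told apart as limits.

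DHRS3 (ENSMMUG00000005681) returns retinaldehyde to retinol and thereby limits retinoic acid. It measured 120.3, 121, 79.1 and 105 CPM in preterm controls 092, 101, 113 and 209, and 158, 183, 143 and 102 CPM in LPS 16h animals 026, 029, 035 and 038. In LPS 5d animals 239, 240 and 242 it measured 149, 180.0 and 121 CPM, in LPS + Beta-Ac 126, 146 and 118 CPM, and in the term controls 146 and 112 CPM. Means were lowest in preterm controls and highest in LPS 5d, and every group overlapped the preterm controls. The log2 fold change against preterm controls was 0.45 ± 0.19 (SE) in LPS 16h (adjusted p = 0.0681) and 0.50 ± 0.20 in LPS 5d (adjusted p = 0.117), and neither was called. All 8 comparisons of DHRS3 had a 95% interval inside 1 log2 unit on either side of 0.

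ALDH1A1 (ENSMMUG00000013303), one of the enzymes that form retinoic acid, gave 3478 to 10467 counts per library. It measured 189, 207, 196 and 321 CPM in the preterm controls 092, 101, 113 and 209. In LPS 16h it measured 263, 279, 198 and 165 CPM, which overlapped the preterm controls. In LPS 5d it measured 145, 154 and 165 CPM, and in LPS + Beta-Ac 136, 141 and 142 CPM.

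Every preterm control was therefore above every animal of both 5-day groups for ALDH1A1, and the 2 term controls, at 202 and 147 CPM, overlapped the preterm controls and LPS 5d but not LPS + Beta-Ac. The log2 fold change of LPS + Beta-Ac against preterm controls was -0.68 ± 0.20 (SE, adjusted p = 0.0272), which passed the p threshold but not the fold threshold. By p alone, 17.3% of all genes passed in that comparison and 2 of 9 members did. Without preterm control 209, the highest animal, the value was -0.50 (adjusted p = 0.0614). The adjusted p was also above 0.05 without any 1 of the 3 LPS + Beta-Ac animals, at 0.0638 to 0.0915. For LPS 5d the log2 fold change was -0.53 against preterm controls (adjusted p = 0.0889) and -0.52 against LPS 16h (adjusted p = 0.053). LPS + Beta-Ac and LPS 5d differed by -0.15 with a 95% interval of -0.60 to 0.30, so a further 2-fold decrease with Beta-Ac lies outside the interval.

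ALDH1A2 (ENSMMUG00000019504), the main retinoic acid-forming enzyme of embryonic mesenchyme and of mesothelium, averaged 13.1 ± 4.75 CPM in preterm controls and 14.7 ± 1.79 in LPS 16h. It averaged 11.6 ± 3.29 in LPS 5d, 9.40 ± 2.34 in LPS + Beta-Ac and 9.91 ± 5.55 in term controls (SD, n = 4, 4, 3, 3 and 2). The preterm controls ran from 8.15 to 18.3 CPM and spanned or overlapped every other group. The largest difference from preterm controls was -0.44 in term controls, with a 95% interval of -1.21 to 0.33. Mesothelial markers (8 listed, 8 in the table) summed to 116 to 184 CPM in preterm controls, 180 to 273 in LPS 16h, 146 to 175 in LPS 5d, 119 to 197 in LPS + Beta-Ac and 170 to 238 in term controls. The higher sum in LPS 16h came mostly from KRT18, a keratin of epithelia in general (80.7 to 112 CPM in preterm controls and 136 to 247 CPM in LPS 16h). Of the 7 tested markers 3 were higher and 4 lower in LPS 16h, with LRRN4 called higher (log2 fold change 2.55) and UPK3B called lower (-2.08). Their part in the level of ALDH1A2 was not tested.

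CRABP2 (ENSMMUG00000002295), the cytosolic protein that delivers retinoic acid to nuclear RARs, was the member whose level differed most between groups. It was read as 33, 29, 36 and 55 counts in preterm controls 092, 101, 113 and 209, and as 5, 17, 12 and 12 counts in LPS 16h animals 026, 029, 035 and 038. The LPS 16h libraries thus held fewer CRABP2 counts although each was deeper than every preterm library. The LPS 5d animals 239, 240 and 242 had 2, 32 and 11 counts, the LPS + Beta-Ac animals 248, 249 and 255 had 7, 13 and 9, and term controls 200 and 201 had 16 and 3.

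On the CPM scale CRABP2 was 1.44, 1.34, 1.28 and 2.00 in the preterm controls. It was 0.178, 0.454, 0.280 and 0.349 in LPS 16h, 0.0726, 1.23 and 0.522 in LPS 5d, 0.264, 0.471 and 0.347 in LPS + Beta-Ac, and 0.588 and 0.0970 in term controls. Every other animal lay below the lowest preterm control, but LPS 5d animal 240, at 1.23 CPM, came close to preterm control 113 at 1.28 CPM. The order of the means was preterm controls, LPS 5d, LPS + Beta-Ac, term controls and LPS 16h, and the last 4 groups overlapped one another. Exact Poisson 95% intervals, which cover counting error only, reached up to 0.726 CPM in the LPS 16h animals and started at 0.894 CPM in the preterm controls. For the 2 counts of animal 239 the interval was 0.00879 to 0.262 CPM, and for the 32 counts of animal 240 it was 0.840 to 1.73 CPM, so these animals of the same group differed beyond counting error.

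CRABP2 fell in LPS 16h against preterm controls, with a log2 fold change of -2.07 ± 0.57 (SE, 95% interval -3.28 to -0.87, adjusted p = 0.00925). It was lower in 4 of 4 animals. The call held in all 16 alternatives, with log2 fold changes of -2.25 to -1.88 and adjusted p of 0.00084 to 0.0284. In the same comparison 38.3% of all genes had an adjusted p below 0.05.

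CRABP2 also fell in LPS + Beta-Ac, by 1.89 ± 0.61 on the log2 scale (adjusted p = 0.0447), with 3 of 3 animals lower. That call was lost when any 1 of the 7 animals compared was left out (adjusted p 0.0731 to 0.145, log2 fold change -2.04 to -1.72). It was also lost without preterm control 209 and term control 200 together (adjusted p = 0.066) and with a prior count of 0.5 in place of 2 (adjusted p = 0.0698). The call held with median-of-ratios size factors (adjusted p = 0.0482) and with library totals (adjusted p = 0.0424). It also held with limma-voom, without the filter, without the robust option and with only the groups compared, and the lowest adjusted p was 0.00471.

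For CRABP2 in LPS 5d the log2 fold change was -1.71 ± 0.61 (adjusted p = 0.0755) and was not called, and single animals decided its size. Without animal 240 it was -2.43 (adjusted p = 0.0235, called), and without animal 239 it was -0.83 (adjusted p = 0.368). In term controls it was -2.23 ± 0.69 (adjusted p = 0.0863), with -3.23 without term control 200 (adjusted p = 0.0946) and -1.25 without term control 201 (adjusted p = 0.514). The 4 comparisons that leave out the preterm controls gave log2 differences of -0.18 to 0.53 for CRABP2. Their 95% intervals each reached beyond 1 log2 unit on at least 1 side, so a 2-fold difference among these groups was neither shown nor outside the intervals.

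**Figure D2:**
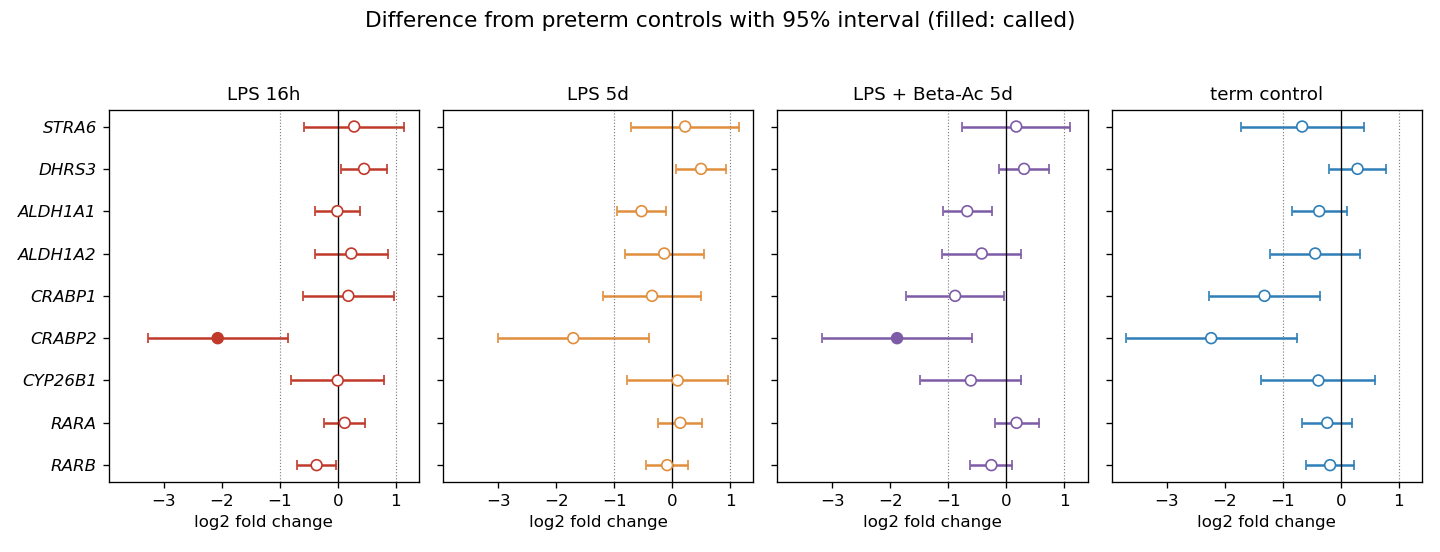
Log2 fold change of each member against preterm controls in the 4 comparisons, with bars for the 95% interval, filled points for called genes and dotted lines at 1 log2 unit on either side of 0. CRABP2 lay between -1.71 and -2.23 in all 4 panels and was called in 2, and the narrow bars of DHRS3, RARA and RARB stayed within the dotted lines.

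Among the genes whose log2 CPM followed CRABP2 most closely over the 16 animals were P3H4 (Pearson r = 0.85) and SLC4A8 (r = 0.85). These values are descriptions over animals that share the differences between groups.

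Markers of neural cells (8 listed, 6 tested) summed to 32.5 to 54.7 CPM in preterm controls, 29.5 to 45.2 in LPS 16h, 26.5 to 45.1 in LPS 5d, 22.4 to 30.4 in LPS + Beta-Ac and 23.8 to 44.6 in term controls. The sums overlapped those of the preterm controls in LPS 16h, LPS 5d and term controls, and lay below them in LPS + Beta-Ac. Of the 6 tested, 1 was called lower in LPS 16h, 0 in LPS 5d, 1 in LPS + Beta-Ac and 0 in term controls. None was called higher, and limma-voom gave the same counts. Called or not, 2 were higher and 4 lower in LPS 16h. In LPS 5d 1 and in term controls 2 had an unadjusted p below 0.05.

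Lung fibroblast markers summed to 7756 to 13110 CPM in preterm controls and to 5763 to 8424 in LPS 16h, 5121 to 9402 in LPS 5d, 4844 to 6639 in LPS + Beta-Ac and 4715 to 5313 in term controls. The sums of LPS 16h and LPS 5d overlapped those of the preterm controls. Most of the sum was COL1A1 and COL1A2, with means of 4386 and 3685 CPM in preterm controls. Of these 8 markers, 3 were called lower in LPS 16h, 0 in LPS 5d, 3 in LPS + Beta-Ac and 2 in term controls, and 0 were called higher in any of these. Called or not, 6 were lower and 2, PDGFRA and FGF10, higher in LPS 16h. Limma-voom gave the same counts, and in LPS 5d 3 of the 8 had an unadjusted p below 0.05. The part of nerve and fibroblast content in the level of CRABP2 was not tested, and in whole tissue fewer cells of a type and less RNA per cell cannot be told apart.

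CRABP1 (ENSMMUG00000009393), the second cytosolic carrier, which is linked mainly to the breakdown of retinoic acid, had 5 to 48 counts per library. It measured 0.654, 0.555, 0.355 and 0.837 CPM in preterm controls 092, 101, 113 and 209, and 0.391, 1.28, 0.490 and 0.756 CPM in LPS 16h. In LPS 5d it measured 0.544, 0.461 and 0.332 CPM, in LPS + Beta-Ac 0.339, 0.181 and 0.347 CPM, and in term controls 0.221 and 0.162 CPM.

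All preterm controls were above all LPS + Beta-Ac and term animals for CRABP1, although preterm control 113, at 0.355 CPM, was barely above LPS + Beta-Ac animal 255 at 0.347 CPM. The log2 fold change of term against preterm controls was -1.32 ± 0.45 (SE, adjusted p = 0.118), and that of LPS + Beta-Ac was -0.88 ± 0.40 (adjusted p = 0.147). Neither was called. In LPS 16h it was 0.18 with a 95% interval of -0.60 to 0.96.

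CYP26B1 (ENSMMUG00000012141), the enzyme that breaks retinoic acid down in many fetal tissues, varied widely within groups. It ran from 3.96 to 7.38 CPM in preterm controls, 2.27 to 8.46 in LPS 16h, 3.84 to 7.88 in LPS 5d, 2.61 to 4.82 in LPS + Beta-Ac and 3.31 to 4.59 in term controls. The groups overlapped in every pair, and none of the 8 comparisons had an adjusted p below 0.341. In LPS + Beta-Ac the log2 fold change was -0.61 against preterm controls and -0.71 against LPS 5d, with 95% intervals of -1.48 to 0.25 and -1.64 to 0.22.

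RARA (ENSMMUG00000012486), the receptor found in most tissues, was 101.9 ± 12.8 CPM (SD, n = 4) in preterm controls, 112 ± 26.5 in LPS 16h (n = 4), 114 ± 24.0 in LPS 5d (n = 3), 114 ± 2.34 in LPS + Beta-Ac (n = 3) and 86.3 ± 7.63 in term controls (n = 2). All 8 of its comparisons had 95% intervals within 1 log2 unit of 0. The widest reach was 0.86 for LPS + Beta-Ac against term, where the 3 and 2 animals did not overlap (log2 fold change 0.41, adjusted p = 0.398).

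RARB (ENSMMUG00000007367) is both a receptor and a gene induced by retinoic acid itself. It measured 18.4, 16.1, 16.2 and 18.1 CPM in preterm controls 092, 101, 113 and 209, and 13.6, 9.55, 15.5 and 15.7 CPM in LPS 16h. Every LPS 16h animal lay below every preterm control, with a log2 fold change of -0.37 ± 0.16 (SE, adjusted p = 0.080). It was not called, and the 95% interval of -0.70 to -0.03 excluded a 2-fold difference. The other groups ran from 12.6 to 17.6 CPM and overlapped the preterm controls, with intervals inside 1 log2 unit.

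Over the 16 animals the members did not move as 1 block. Pearson's r between the log2 CPM of pairs of members ran from -0.60 for RARB and DHRS3 to 0.59 for RARA and DHRS3, as a description of animals that share group differences. ALDH1A1 and CRABP2, the members with an adjusted p below 0.05 with TMM scaling, had r = 0.41.

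Direction in LPS 16h depended on scaling. The median log2 fold change of all genes was -0.09 with TMM and -0.29 with library totals, an alternative chosen after seeing the data, and 57.8% or 39.4% of the called genes were then higher. Of the 9 members, 5 had a positive log2 fold change with TMM, 7 with median-of-ratios size factors and 3 with library totals. ALDH1A1, CYP26B1, CRABP1 and RARA changed sign among these, DHRS3, ALDH1A2 and STRA6 stayed positive, and CRABP2 and RARB stayed negative. Some adjusted p from limma moved across 0.05 as well. For DHRS3 in LPS 16h it was 0.0681 with TMM, 0.0455 with median-of-ratios size factors and 0.279 with library totals. For RARB the values were 0.08, 0.127 and 0.0151 in the same order. ALDH1A1 in LPS 5d against LPS 16h had 0.053, 0.0488 and 0.204. None of these reached the fold threshold.

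The wider pathway was counted over a list of 69 further genes, 65 of which were in the table and 61 of which were tested. In LPS 16h against preterm controls 6 were called higher and 6 lower, 12 of 61 beside 14.4% of all genes (8.3% higher and 6.07% lower), with a median log2 fold change of -0.15 against -0.09 for all genes. In LPS 5d and in LPS + Beta-Ac 1 of 61 was called, RBP4 in each case and lower, and in term controls 1 was called, CES1, and higher. LPS + Beta-Ac against LPS 5d called 0, with 0 at an unadjusted p below 0.05. LPS 5d and LPS + Beta-Ac against term also called 0, with 9 and 10 at an unadjusted p below 0.05, and limma-voom called 0 in these 3 comparisons as well. LPS 5d against LPS 16h called 5 higher and 4 lower, beside 14.6% of all genes.

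By role, the LPS 16h calls against preterm controls fell in uptake and carriers of retinol (2 higher and 1 lower of 8 tested), enzymes of retinol and retinaldehyde (2 higher and 1 lower of 12), retinaldehyde dehydrogenases (1 higher of 1) and genes that answer retinoic acid (1 higher and 4 lower of 19). Of 6 genes for storage and release of retinyl esters 0 were called, 5 had an unadjusted p below 0.05, and limma-voom called 1 lower. Of 8 co-regulators of the receptors 0 were called by limma or limma-voom, and 0 had an unadjusted p below 0.05.

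RBP4 (ENSMMUG00000014711), the plasma carrier of retinol and the ligand of STRA6, was on opposite sides of the preterm controls at the 2 times after LPS. It measured 1.92, 1.48, 1.45 and 2.47 CPM in preterm controls 092, 101, 113 and 209, and 4.09, 3.39, 4.27 and 3.40 CPM in LPS 16h. In LPS 5d it measured 0.290, 0.614 and 0.190 CPM, in LPS + Beta-Ac 0.264, 0.362 and 0.616 CPM, and in term controls 1.91 and 0.970 CPM.

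No exposed animal overlapped the preterm controls for RBP4. The log2 fold change was 1.05 ± 0.33 (SE) in LPS 16h (adjusted p = 0.0201), -2.22 ± 0.35 in LPS 5d (adjusted p = 0.00102) and -2.01 ± 0.35 in LPS + Beta-Ac (adjusted p = 0.00129). LPS 5d against LPS 16h gave -3.26 ± 0.35 (adjusted p = 5.37e-06). The decreases stayed called whichever animal was left out. The increase in LPS 16h was lost without preterm control 101, preterm control 113 or LPS 16h animal 035 (lowest log2 fold change 0.95, highest adjusted p 0.0563) and with library totals (0.84).

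ALDH1A3 (ENSMMUG00000006659), the third retinaldehyde dehydrogenase, rose in LPS 16h while ALDH1A1 and ALDH1A2 were not called. It was 5.08 to 8.12 CPM in preterm controls and 76.8, 37.9, 20.1 and 64.9 CPM in LPS 16h animals 026, 029, 035 and 038. The log2 fold change was 2.74 ± 0.38 (SE, adjusted p = 5.03e-05). In LPS 5d, at 7.98 to 10.8 CPM, it was lower than in LPS 16h by 2.27 on the log2 scale (-2.27, adjusted p = 0.00056) and was not called against preterm controls. Whether its change differed from that of the other ALDH1A genes was not tested.

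The other genes called higher in LPS 16h against preterm controls were RBP5, a cytosolic retinol-binding protein (log2 fold change 2.18), RET, a receptor tyrosine kinase (1.32), RDH10, which oxidizes retinol to retinaldehyde (1.03), and AKR1B10, which reduces retinaldehyde (1.01). RDH10 was 6.36 to 9.20 CPM in preterm controls and 11.3 to 22.3 CPM in LPS 16h. It lost its call without preterm control 092 or LPS 16h animals 029 or 038 (0.87 at the lowest) and with library totals (0.83). AKR1B10 was called in only 2 of 8 fits that left out 1 animal and was not called with library totals (0.81).

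Among genes of uptake and reduction, LRP2, an endocytic receptor for retinol bound to its carrier, fell by 2.00 on the log2 scale in LPS 16h. It was 1.03 to 1.35 CPM in preterm controls and 0.133 to 0.604 CPM in LPS 16h. RDH12, a retinaldehyde reductase, fell by 1.54, from 1.49 to 1.66 CPM in preterm controls to 0.350 to 0.640 CPM in LPS 16h. Both stayed called whichever animal was left out.

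**Figure D3:**
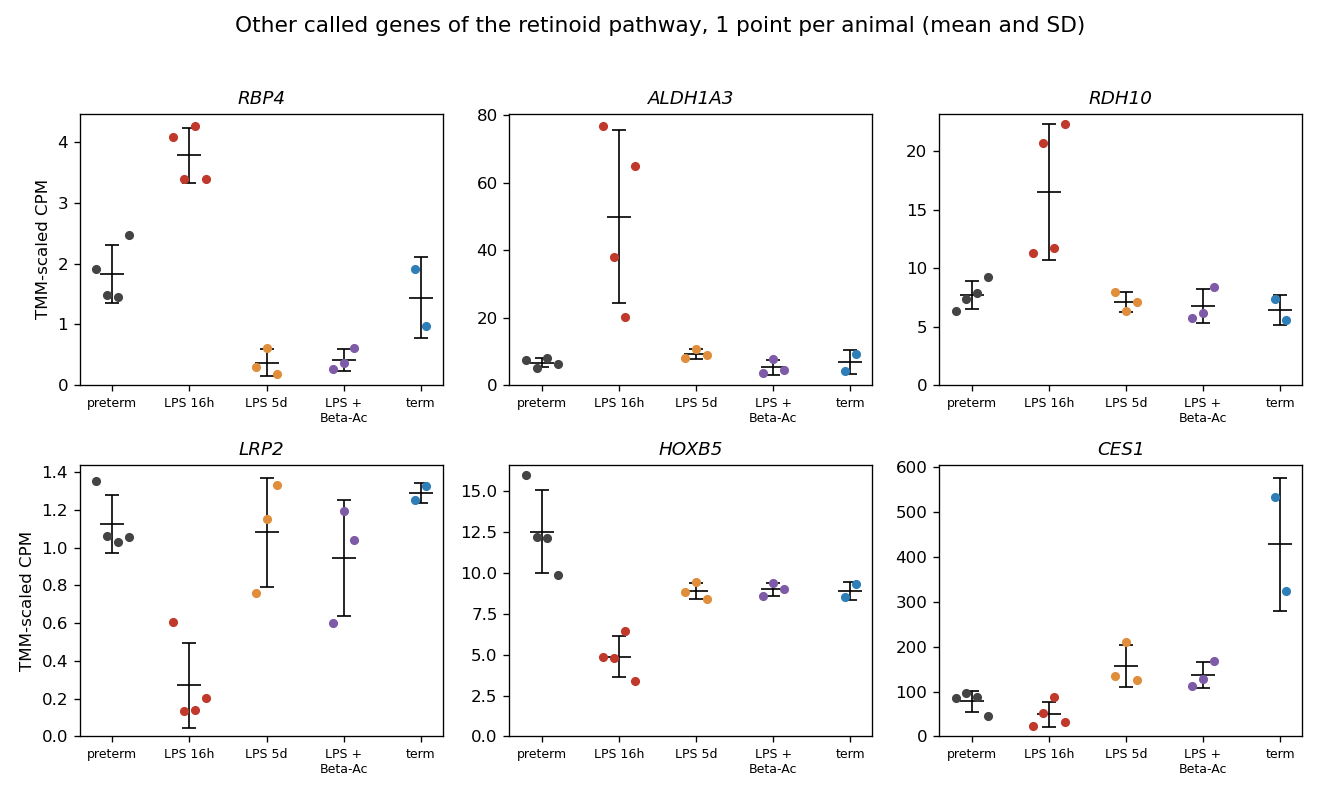
TMM-scaled CPM of 6 called genes of the wider pathway (1 panel each, linear axes from 0), with 1 point per animal and the mean and SD of each group. RBP4 was above the preterm controls in LPS 16h and below them in both 5-day groups, ALDH1A3 and RDH10 were highest in LPS 16h, LRP2 and HOXB5 were lowest there, and CES1 was highest in term controls.

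Of 20 genes known to answer retinoic acid, 19 were tested. In LPS 16h against preterm controls 14 of 19 were lower, with a median log2 fold change of -0.85, and 13 had an adjusted p below 0.05 in that direction and 3 in the other, beside 38.3% of all genes in either direction. At the fold threshold 4 were called lower and 1, RET, higher, beside 6.07% and 8.3% of all genes. HOXB1 (log2 fold change -1.40), HOXB5 (-1.36), HOXB2 (-1.16) and HOXA3 (-1.03) were the 4, all transcription factors of axial patterning. HOXB5, for example, was 9.86 to 16.0 CPM in preterm controls and 3.40 to 6.46 in LPS 16h.

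With either other scaling 14 of the 19 were again lower in LPS 16h. HOXA3 dropped just under the fold threshold with median-of-ratios size factors (-0.99), and its call was lost without any 1 of preterm controls 092 and 209 or LPS 16h animals 029 and 038. Whether the libraries kept strand is not given in the sources used here, and reads of antisense transcripts in the HOX clusters may be included.

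In the same animals alveolar type 1 markers summed to 1491 to 1762 CPM in LPS 16h against 4060 to 4642 CPM in preterm controls, with 6 of 8 called lower and none at 0. Macrophage and monocyte markers summed to 873 to 991 CPM against 141 to 263 CPM, with 5 of 8 called higher. Of 8 alveolar type 2 markers 5 were called higher in LPS 16h, although their sums overlapped those of the preterm controls. The part of these shifts, of the neutrophil increase or of the mixed fibroblast marker changes in the differences of pathway genes was not tested.

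At 5 days the genes that answer retinoic acid were closer to preterm controls. In LPS 5d and in LPS + Beta-Ac 14 of 19 had negative values, with a median of -0.30 in each, and 0 were called by limma or limma-voom, with 8 and 7 at an unadjusted p below 0.05. In term controls 15 of 19 had negative values, with a median of -0.23, 0 called by either and 5 at an unadjusted p below 0.05. The medians of all genes were -0.002 in LPS 5d, -0.01 in LPS + Beta-Ac and -0.009 in term controls. By adjusted p below 0.05 alone, 2 of the 19 were lower in LPS 5d, 2 in LPS + Beta-Ac and 1 in term controls. Of all 19199 genes 2827, 3317 and 766 passed that threshold in the same order. Among the genes called higher in LPS 5d than in LPS 16h were HOXB1 (log2 fold change 1.50), LRP2 (1.92), CES1 (1.81) and RDH12 (1.25).

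CES1, a carboxylesterase able to release retinol from its esters, was 44.5 to 95.8 CPM in preterm controls, 23.4 to 87.9 in LPS 16h, 125 to 210.0 in LPS 5d, 113 to 168 in LPS + Beta-Ac, and 323 and 533 CPM in term controls. Its log2 fold change in term against preterm controls was 2.47 ± 0.45 (SE, adjusted p = 0.0106). The call was lost without term control 200 (adjusted p = 0.119). LPL, a lipase that frees retinol from lipoproteins, and RDH10 were called lower in LPS 5d than in LPS 16h (log2 fold changes -1.43 and -1.14), beside RBP4 and ALDH1A3.

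The 5 receptors of the list other than RARA and RARB were not called in any of the 8 comparisons by limma or limma-voom, and at most 3 of 5 had an unadjusted p below 0.05 in a comparison. RARG, singled out after its values were seen, was 73.0 to 88.2 CPM in preterm controls and 37.9 to 57.8 CPM in LPS 16h, with a log2 fold change of -0.76 ± 0.15 (SE, adjusted p = 0.00125) that stayed under the fold threshold. In LPS 5d it was 77.9 to 103 CPM and differed from LPS 16h by 0.88 (adjusted p = 0.000791).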

How the data were processed

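RNA from frozen lung was sequenced as poly(A)-selected 75 bp paired-end reads. Per the labels and the study's methods, the authors assigned reads to the rhesus build MMUL10 with kallisto, summarized them with tximport and used DESeq2 for their own comparisons. The table the authors deposited holds whole-number counts, 1 per gene and library, without normalization. The sources used here give no tool versions, no annotation release and no rounding step. The methods name a column kit for RNA extraction and the labels a phenol reagent.

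Counts were scaled with TMM (trimming 30% of ratios and 5% of means), turned into log2 CPM (prior count 2), and fitted with limma 3.58.1 (trend and robust options) in R 4.3.3 with 1 mean per group. The tested genes had 0.371 CPM or more in 2 or more animals and 15 or more counts in all, and p-values are two-sided. Intervals are 95% intervals of single genes. Symbols came from the reference gene table, which gave 17256 IDs a symbol. RDH14, ADH7, ALDH8A1 and HOXB3 matched no ID. No count model was run, because the layout of the table did not allow an automatic check of its unit. The values are whole numbers and were treated as counts, and limma had been planned in place of a count model.

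All 9 members are described, with fold changes for those with an adjusted p below 0.05 or a log2 fold change of at least 1, and others where their interval is informative. Called genes of the wider list are named, and genes most like a called member from its first 3, except some genes that are not reported here. Members and lists, including the cell type markers (mesothelium, neutrophil, macrophage and monocyte, lung fibroblast, alveolar type 1 and 2, neural), were chosen with earlier results of these data known. Levels are compared within a gene only, since transcript lengths were not used. Alternatives were other scalings, no filter, a prior count of 0.5, limma-voom, no robust option, no fold threshold, only the groups compared, and leaving out animals. The steps were tested on simulated counts in which 200 genes were changed by 2 log2 units. Of these, 97 to 100% were called in each comparison, beside 2 to 14 unchanged genes. Genes as sparse as CRABP1, CRABP2 and STRA6 were not among those changed, so detection at such counts was not tested.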

Additional observations from a re-analysis of the deposited data

How the results depend on the processing

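Each of the 8 comparisons under each alternative was taken as 1 case. The number of members called held in 110 cases and moved in 11. Most of the 110 were comparisons with 0 members called that stayed at 0. Those 11 concern CRABP2 and ALDH1A1. For LPS + Beta-Ac against preterm controls, 1 member was called as reported, 2 with no minimum fold change (ALDH1A1 was added), 0 with a prior count of 0.5, 0 without preterm control 209 and term control 200 together (chosen after seeing the data), and 0 in each fit that left out 1 animal, so that the range was 0 to 0. For LPS 5d against preterm controls, leaving out 1 animal gave 0 to 1 members, with 1 only without animal 240. No fold change of a member that passed a threshold reversed. CRABP1 in term controls had adjusted p of 0.112 to 0.369 over 14 alternatives and was called in none. The count of called genes of the wider list stayed within 1.5 times the reported count in 105 cases and went beyond it in 8. Staying within it does not say that the genes were the same. The count went to 2 in LPS + Beta-Ac without preterm control 209, alone or with term control 200. It went to 3 in LPS 5d with only the 2 groups compared and to 2 without both animals. In term controls it went to between 0 and 3 (1 as reported). In LPS 16h it was 12 as reported and 9 (without preterm control 092) to 16 (with library totals), although AKR1B10, HOXA3, RBP4 and RDH10 each lost their call in some of these refits. Term controls have 2 animals, and leaving out 1 assumes that the other varies like the remaining groups. CRABP1, CRABP2 and STRA6 have at most 55 counts in a library, which limits what could be detected. Some called genes of the wider list were also sparse. RBP4 had 4 to 16 counts per library in the 5-day groups, and RET 6 to 19 in preterm controls. In LPS 16h LRP2 had 5 to 17, RDH12 14 to 22 and HOXB1 13 to 34.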
